A study of Mus musculus with 11 samples.

Results

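CpG methylation was examined at 8 genes that carry the glucocorticoid signal or are commonly assayed after early-life stress: the receptors Nr3c1 and Nr3c2, the enzymes Hsd11b1 and Hsd11b2, the receptor chaperone Fkbp5, the stress-axis genes Crhr1 and Pomc, and the neurotrophin Bdnf. They were found by symbol among the 25802 gene bodies and 24391 promoters of the deposited tables, and any CpG island (of 14841) or 5000 bp tile (of 259716) touching the gene or promoter was added. This gave 105 regions: 8 gene bodies, 7 promoters (all genes but Hsd11b1), 13 islands and 77 tiles.

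The libraries were reduced representation bisulfite sequencing of pancreas from wild type C57BL/6N mice at postnatal day 0, so that reads begin at the cut sites of the restriction enzymes MspI (CCGG) and TaqI (TCGA). Pregnant dams were injected with amphetamine at 10 mg/kg on embryonic days 14.5, 15.5 and 16.5, and 5 of their offspring (3 females, 2 males) were compared with 6 controls (3 females, 3 males) labelled Saline. The same 11 mice were also compared by sex, as 6 females against 5 males. The labels do not tie mice to dams or litters, so the p-values measure only the spread between these mice. The tables summarise each group by its mean, its SD and the range over mice, with no value per mouse, and every mean and SD below is the authors'. Coverage is printed as deposited, a mean over all mice of a group in which a mouse without reads counts as 0.

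Glucocorticoids act through the glucocorticoid receptor, encoded by Nr3c1, and the high-affinity mineralocorticoid receptor, encoded by Nr3c2, with Hsd11b1 regenerating and Hsd11b2 inactivating the hormone inside cells. Fkbp5 lowers the affinity of the receptor for hormone and is itself induced by glucocorticoids, while Crhr1 and Pomc belong to the pituitary limb that drives adrenal secretion. In fetal pancreas, glucocorticoids are known to influence how endocrine and exocrine cells mature. CpGs in islands at gene starts are usually unmethylated and those in gene interiors methylated.

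The sequences below are from 5 of the genes, with each CpG in capitals. They come from the GRCm38.p6 assembly, which is the mm10 assembly of the files. The first is the 300 bases before the Nr3c2 start of the gene table (chr8:76899142-76899441, + strand). It holds 35 CpGs, each within 50 bases of a CCGG or TCGA, and lies in the promoter whose 2 groups of mice did not overlap. Its last part also lies in the CpG island at the start, where the groups overlapped. A CpG this close to a cut site is called within reach, which does not mean that it was read.
Nr3c2 upstream: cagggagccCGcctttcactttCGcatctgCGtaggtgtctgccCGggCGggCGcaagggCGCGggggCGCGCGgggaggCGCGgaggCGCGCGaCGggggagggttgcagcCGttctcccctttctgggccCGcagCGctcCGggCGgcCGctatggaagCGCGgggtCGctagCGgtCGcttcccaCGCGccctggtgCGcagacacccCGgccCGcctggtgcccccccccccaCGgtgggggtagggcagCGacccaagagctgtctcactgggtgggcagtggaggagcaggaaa

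Bdnf had islands at opposite levels of methylation, and the next pair shows that their CpG content was similar. The upstream island (chr2:109674033-109674244, + strand) has 18 CpGs in 212 bases, and the island in the coding exon (chr2:109723441-109723686, + strand) has 17 CpGs in 246 bases, with 12 CpGs within reach of a cut site in each.
Bdnf island 1: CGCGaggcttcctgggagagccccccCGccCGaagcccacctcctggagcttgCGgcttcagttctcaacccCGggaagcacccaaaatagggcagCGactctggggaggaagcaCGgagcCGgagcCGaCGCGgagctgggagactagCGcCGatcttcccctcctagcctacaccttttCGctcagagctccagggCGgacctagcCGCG
Bdnf island 4: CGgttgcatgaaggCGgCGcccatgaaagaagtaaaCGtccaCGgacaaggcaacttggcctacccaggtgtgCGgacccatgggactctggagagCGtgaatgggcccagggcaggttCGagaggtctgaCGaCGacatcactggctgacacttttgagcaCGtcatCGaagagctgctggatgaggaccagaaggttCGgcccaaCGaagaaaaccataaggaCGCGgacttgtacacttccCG

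The RefSeq promoters of Pomc (chr12:3954695-3954994, + strand), Crhr1 (chr11:104132531-104132830, + strand) and Hsd11b1 (chr1:193242311-193242610, - strand) are shown because they differed in how many CpGs lie near a cut site. In these 300 bases Pomc has 18 CpGs, 10 of them within reach, Crhr1 has 31 CpGs, 28 within reach, and Hsd11b1 has 6 CpGs, 0 within reach.
Pomc promoter: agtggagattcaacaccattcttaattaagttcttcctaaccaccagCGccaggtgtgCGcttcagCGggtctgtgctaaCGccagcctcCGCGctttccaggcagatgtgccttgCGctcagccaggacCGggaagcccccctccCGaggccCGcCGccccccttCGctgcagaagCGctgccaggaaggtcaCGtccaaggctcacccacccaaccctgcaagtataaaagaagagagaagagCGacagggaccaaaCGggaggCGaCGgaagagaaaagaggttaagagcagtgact
Crhr1 promoter: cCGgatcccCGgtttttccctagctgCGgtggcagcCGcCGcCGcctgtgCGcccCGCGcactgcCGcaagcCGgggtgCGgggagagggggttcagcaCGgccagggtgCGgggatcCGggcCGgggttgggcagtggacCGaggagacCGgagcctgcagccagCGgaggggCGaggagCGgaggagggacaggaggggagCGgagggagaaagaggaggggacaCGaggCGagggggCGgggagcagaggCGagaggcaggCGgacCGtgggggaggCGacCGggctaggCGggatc
Hsd11b1 promoter: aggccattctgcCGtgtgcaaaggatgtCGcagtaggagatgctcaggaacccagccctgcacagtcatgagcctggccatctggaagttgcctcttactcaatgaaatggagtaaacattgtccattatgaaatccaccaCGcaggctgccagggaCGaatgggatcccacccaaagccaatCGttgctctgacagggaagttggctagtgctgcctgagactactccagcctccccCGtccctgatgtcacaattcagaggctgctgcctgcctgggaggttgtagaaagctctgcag

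The letters CCGG, TCGA or both occur in 60.5% of the 32851 RefSeq promoters of this length (52.8% and 22.0%). They occur in 10 of the 12 RefSeq promoters found for 6 of the 8 genes. Both motifs read the same on either strand. Hsd11b1, which had no promoter in the table, has 13 CpGs and 0 cut sites in the 2000 bases around its gene-table start.

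Among the 7 promoters, 6 were nearly unmethylated in both groups and Pomc was intermediate. In controls the order was Nr3c1 (0%), Nr3c2 (0.268%), Hsd11b2 (1.35%), Bdnf (3.96%), Crhr1 (4.15%), Fkbp5 (7.49%) and Pomc (38.8%). The control ranges of neighbours in this order overlapped except those of Fkbp5 and Pomc. The median of all promoters tested was 8.12% in controls and 8.28% in amphetamine-exposed mice.

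Gene bodies spread much further apart. In controls Pomc (3.88%), Hsd11b2 (6.74%), Bdnf (8.04%) and Nr3c1 (14.9%) were low, Fkbp5 (29.8%) and Crhr1 (35.9%) followed, and Nr3c2 (56.4%) and Hsd11b1 (84.6%) were highest. The control ranges separated Nr3c1 from Fkbp5, Crhr1 from Nr3c2 and Nr3c2 from Hsd11b1, whereas the other neighbours overlapped.

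**Figure D1:**
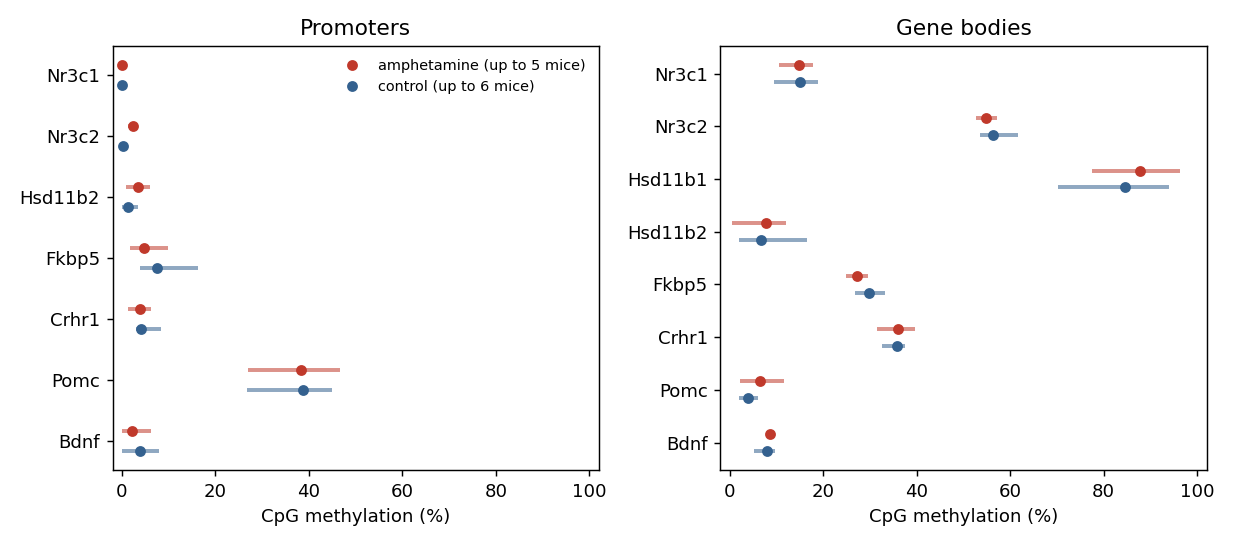
CpG methylation (%) of the 7 promoters and 8 gene bodies, with points for the authors' group means and bars from the lowest to the highest mouse. Nr3c2 is the promoter whose bars do not overlap, and Pomc stands at 38.3% and 38.8% in the 2 groups. Nr3c1 promoter values rest on 4 amphetamine-exposed and 2 control mice with reads.

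Between amphetamine and control, 0 of the member regions tested passed the threshold, and an Nr3c2 tile was not tested. limma called 0 of 7 promoters, 0 of 8 gene bodies, 0 of 13 islands and 0 of 76 tiles tested at an adjusted p under 0.05, two-sided, against 0.0164% of all promoters, 0.0116% of gene bodies, 0.0135% of islands and 0.0185% of tiles. At an unadjusted p under 0.05 there was 1 promoter (4.11% of all promoters passed), 0 gene bodies (4.38%), 0 islands (4.1%) and 5 tiles (4.4%), of which 1 was higher and 4 lower after amphetamine. The median difference, amphetamine minus control, was -0.23 percentage points at the 7 promoters, 0.371 at the 8 gene bodies and 0.726 at the 13 islands, beside 0, -0.086 and 0 points over all regions of these classes. In simulated data of this design, 86% of promoters shifted by 30 points were recovered and 15% of those shifted by 10 points. The shifted promoters had intermediate methylation and a pooled SD under 10 points. The nearly unmethylated member promoters lie outside this setting, so these shares do not carry over to them. In bulk tissue, a change in the methylation of a cell type and a change in the mixture of cells cannot be told apart.

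**Figure D2:**
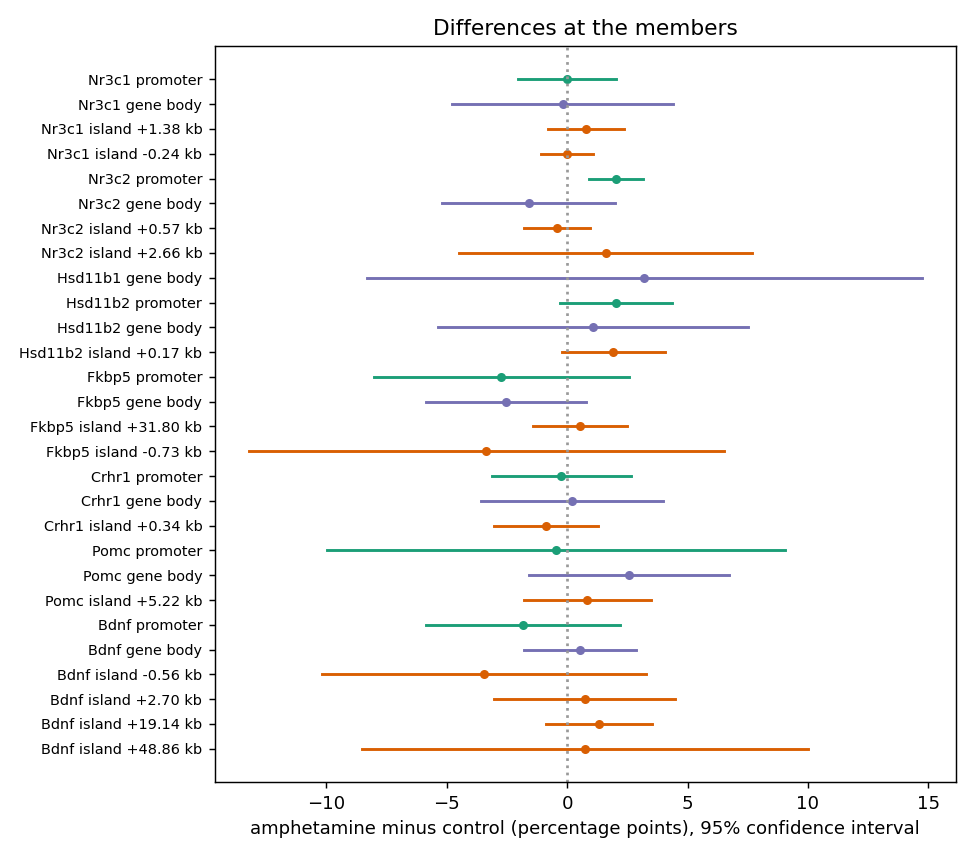
Difference in methylation, amphetamine minus control, in percentage points with its 95% confidence interval, for each promoter (green), gene body (purple) and CpG island (orange) of the 8 genes, islands named by the distance of their centre from the gene start. The Nr3c2 promoter is the one interval that leaves out 0 (0.904 to 3.16 points).

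Nr3c2, the mineralocorticoid receptor gene (ENSMUSG00000031618, chr8:76899442-77245012, + strand), had the lowest p of the 7 promoters. Its promoter (chr8:76897942-76899941) was at 2.30% ± 0.721 (SD, 5 mice) after amphetamine, ranging from 1.26% to 3.08%. Controls were at 0.268% ± 0.407 (SD, 6 mice), ranging from 0% to 1.04%. Every amphetamine-exposed mouse was therefore above every control, by a gap of 0.221 points, and the groups were 2.03 points apart (95% confidence interval 0.904 to 3.16). The limma adjusted p was 0.891 (0.0025 before adjustment), and 67 of 24360 promoters had a lower p. With reads in all mice, the groups did not overlap at 1 of the 6 promoters, against 0.395% of all promoters. Coverage of this promoter averaged 516.6 after amphetamine and 416.8 in controls, and no mouse fell below 208. Without the highest amphetamine-exposed mouse the difference was 1.84 points.

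The tile ending just after the start (chr8:76895001-76900000) was at 2.12% ± 0.648 (1.2% to 2.76%) after amphetamine and 0.251% ± 0.385 (0% to 0.987%) in controls, again without overlap. It is not separate evidence, since all 63 promoter CpGs within reach of a cut site are among its 71. Its limma adjusted p was 0.965, 0.136 before adjustment. Among tiles with reads in all mice, 1 of 58 did not overlap between groups, against 0.351% of all such tiles. The CpG island at the start (chr8:76899274-76900752) had the opposite sign, at 3.42% ± 0.920 (2.22% to 4.63%) after amphetamine and 3.85% ± 1.06 (2.33% to 5.15%) in controls, with overlapping groups (-0.435 points, interval -1.80 to 0.932, limma adjusted p = 0.939). Promoter and island share 33 CpGs within reach, while 30 lie in the promoter alone and 55 in the island alone. The promoter also overlaps Gm10649, a long non-coding RNA gene on the opposite strand, so the methylation there cannot be assigned to either gene.

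**Figure D3:**
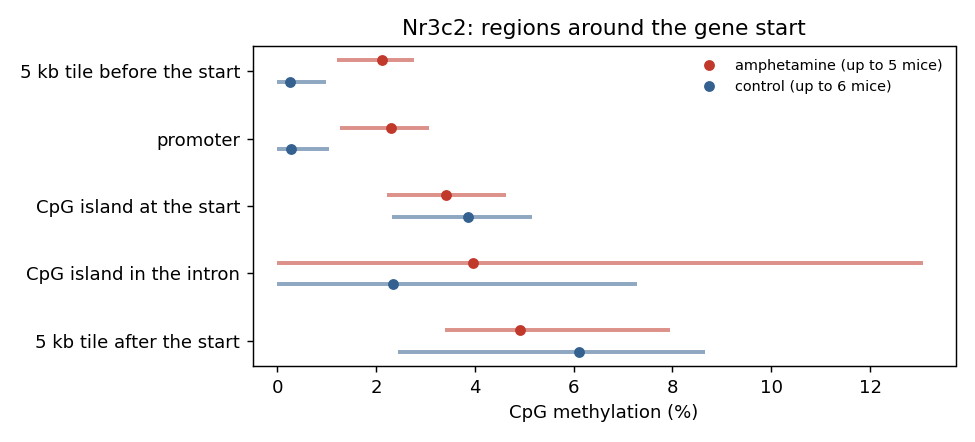
CpG methylation (%) of 5 regions around the Nr3c2 start, with points for group means and bars from the lowest to the highest mouse. The promoter and the tile before the start separate the groups, and the island at the start and the regions behind it do not.

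Further into Nr3c2 methylation was high. The first tile after the start held 4.92% and 6.11% in the amphetamine and control groups, the next one 91.2% and 88.3%. The second island (chr8:76901938-76902270), which lies in an intron, was at 3.96% ± 5.75 (0% to 13.1%) against 2.35% ± 3.65 (0% to 7.29%). Without the highest amphetamine-exposed mouse its difference went from 1.61 to -0.669 points. The gene body was at 54.8% ± 1.76 (52.7% to 57.1%) against 56.4% ± 2.94 (53.6% to 61.6%), a difference of -1.60 points (interval -5.18 to 1.98). Of 28 Nr3c2 tiles tested, the one with the lowest p was intronic (chr8:76970001-76975000) and was at 51.0% ± 20.5 (25% to 75.0%, 4 mice with reads) after amphetamine and 80.3% ± 17.6 (54.9% to 100%) in controls. Its groups overlapped, and the limma adjusted p was 0.965, 0.0309 before adjustment.

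Nr3c1 encodes the glucocorticoid receptor (ENSMUSG00000024431, chr18:39410545-39491301, - strand), and methylation near its untranslated first exons is one of the most studied readouts of early-life stress. Its promoter (chr18:39490802-39492801) was at 0% in every mouse with reads, 4 of 5 after amphetamine and 2 of 6 in controls. The mice with reads had a coverage of 23.5 each on average after amphetamine and 75.5 in controls, so that if coverage is read as a count of reads, a value of 0 allows up to 12.8% and 3.97% per mouse. The island inside it (chr18:39491238-39491852) rests on the same 17 CpGs within reach and had the same values. The larger island just downstream (chr18:39488955-39490890) covers further annotated starts and non-coding exons, has 172 of its 238 CpGs within reach, and was read at 610.6 and 452.5. It was at 1.81% ± 1.07 (0.641% to 2.64%) after amphetamine and 1.03% ± 1.25 (0% to 3.41%) in controls. The groups overlapped and the difference was 0.779 points (interval -0.798 to 2.36, limma adjusted p = 0.923). The gene body was at 14.8% ± 2.91 (10.6% to 17.8%) and 14.9% ± 3.69 (9.54% to 19.0%), a difference of -0.18 points (interval -4.77 to 4.41). Of its 6 tiles, that with the lowest p (chr18:39440001-39445000, intronic) was at 100% in 4 mice after amphetamine and 71.3% ± 48.0 (0% to 100%) in 4 controls, at a coverage of 14.6 and 16.0 (limma adjusted p = 0.965).

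Hsd11b2 inactivates corticosterone and so guards the mineralocorticoid receptor (ENSMUSG00000031891, chr8:105518746-105523984, + strand). Its promoter (chr8:105517246-105519245) was at 3.39% ± 2.03 (0.804% to 6.09%) after amphetamine and 1.35% ± 1.33 (0% to 3.45%) in controls. The groups overlapped, and the difference of 2.03 points (interval -0.303 to 4.37) did not pass the test (limma adjusted p = 0.958, 0.0812 before adjustment). The island at its start (chr8:105518523-105519317), which overlaps the promoter, was at 3.23% ± 1.97 against 1.31% ± 1.29. The gene body was at 7.81% ± 4.72 (0.395% to 12.0%) against 6.74% ± 5.05 (1.96% to 16.5%). Of its 2 tiles, the one at the start had the lower p and was at 3.14% ± 1.88 (0.759% to 5.65%) against 2.25% ± 1.84 (0% to 5%), with limma adjusted p = 0.977. The second tile was at 38.1% and 37.9%.

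Hsd11b1 regenerates active corticosterone (ENSMUSG00000016194, chr1:193221634-193264075, - strand) and was the one member without a promoter or an island. Its gene body was at 87.8% ± 8.91 (77.5% to 96.3%) after amphetamine and 84.6% ± 9.10 (70.1% to 94.0%) in controls, the highest level of the 8 genes in both groups. The difference was 3.21 points with an interval from -8.31 to 14.7, the widest of the 8 gene bodies. The tile at its gene-table start (chr1:193260001-193265000) had the lowest p of its 5 tiles, at 93.0% ± 12.4 (71.4% to 100%) against 82.8% ± 16.9 (61.1% to 100%), with limma adjusted p = 0.965. That tile also overlaps Lamb3, a laminin gene. A tile at the far end had a coverage of 0.8 and 0.667 and carries no information on level.

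Fkbp5 (ENSMUSG00000024222, chr17:28399095-28517524, - strand) encodes a co-chaperone that restrains the receptor. Its promoter (chr17:28517025-28519024) was at 4.76% ± 3.41 (1.79% to 9.85%) after amphetamine and 7.49% ± 4.46 (3.85% to 16.2%) in controls, with overlapping groups. The difference was -2.73 points (interval -8.02 to 2.56, limma adjusted p = 0.958). The gene body was at 27.3% ± 2.0 (24.8% to 29.7%) against 29.8% ± 2.45 (26.8% to 33.3%), the lowest p of the 8 gene bodies (limma adjusted p = 0.984, 0.12 before adjustment). The intronic island (chr17:28485498-28485948), beside an internal RefSeq start, was the most CpG-dense of the 13, with all 76 CpGs within reach. It was at 2.17% ± 1.88 (0.104% to 4.50%) against 1.64% ± 1.03 (0% to 2.63%). The tile around it was at 8.65% ± 3.53 and 10.1% ± 2.51, while the tile on its 3′ side was at 73.5% and 73.9%.

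One mouse set the value of the other Fkbp5 island. This island upstream of the start (chr17:28518080-28518436) was at 0.812% ± 1.15 (0% to 2.44%) after amphetamine and 4.17% ± 10.2 (0% to 25%) in controls. The control mean without the mouse at 25% was 0%, and the difference then changed from -3.35 to 0.812 points. Of 16 Fkbp5 tiles, 12 had a lower mean after amphetamine and 4 a higher one, whereas over the 76 member tiles tested 37 were lower and 38 higher, with a median difference of 0.0604 points. The lowest p was that of the tile chr17:28410001-28415000, which holds a coding exon, at 63.9% ± 24.1 (50% to 91.7%, 3 mice with reads) against 91.1% ± 12.6 (75.0% to 100%). Its coverage was 9.2 and 13.0, and its limma adjusted p was 0.965, 0.0394 before adjustment.

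Crhr1 is the receptor of corticotropin-releasing hormone (ENSMUSG00000018634, chr11:104132855-104175523, + strand). Its promoter (chr11:104131355-104133354) was at 3.91% ± 2.14 (1.26% to 6.15%) after amphetamine and 4.15% ± 2.13 (2.92% to 8.41%) in controls. The island across its start (chr11:104132525-104133862) was the most deeply read of the 13, at 1441 and 1079, and held 3.52% ± 1.97 (1.71% to 6.33%) against 4.39% ± 1.3 (2.93% to 6.00%). Gene bodies were at 36.1% ± 2.97 and 35.9% ± 2.36, a difference of 0.206 points (interval -3.56 to 3.97).

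Inside Crhr1, a single tile stood below its neighbours. The tile chr11:104155001-104160000, centred 24.65 kb from the start and holding a coding exon, was at 24.7% ± 6.48 (17.1% to 34.2%) after amphetamine and 14.3% ± 5.81 (5.99% to 21.9%) in controls. The tiles on its sides were at 70.6% and 70.7%, and at 80.1% and 75.3%. The groups overlapped, and the difference of 10.5 points (interval 2.28 to 18.7) had the lowest p of the 76 member tiles tested (limma adjusted p = 0.965, 0.0173 before adjustment). Coverage of this tile averaged 536.4 and 351.3, and 3829 of the 259187 tiles tested had a lower p.

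Pomc encodes the precursor of adrenocorticotropic hormone (ENSMUSG00000020660, chr12:3954951-3960618, + strand), a pituitary product. It was the one member with an intermediate promoter and a low gene body. The promoter (chr12:3953451-3955450), with 19 of 46 CpGs within reach and no island, was at 38.3% ± 7.79 (27.0% to 46.7%) after amphetamine and 38.8% ± 6.91 (26.8% to 44.9%) in controls. The ranges nearly coincided, and the difference was -0.448 points (interval -9.96 to 9.06). The island at the other end of the gene (chr12:3959902-3960450) lies in the coding exon and was at 2.80% ± 2.07 (0.985% to 5.86%) against 1.97% ± 1.96 (0% to 5.33%). The gene body was at 6.44% ± 4.15 (2.16% to 11.7%) against 3.88% ± 1.56 (1.93% to 5.96%), a difference of 2.56 points (interval -1.60 to 6.72). Of its 3 tiles the one before the start (chr12:3950001-3955000) had the lowest p, at 60.2% ± 19.9 (43.7% to 93.1%) against 77.7% ± 16.3 (55.1% to 99.3%), with limma adjusted p = 0.965.

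Bdnf encodes brain-derived neurotrophic factor (ENSMUSG00000048482, chr2:109674700-109727007, + strand), transcribed from several first exons that splice to a shared coding exon. Its promoter (chr2:109673200-109675199) was at 2.14% ± 2.51 (0% to 6.25%) after amphetamine and 3.96% ± 3.39 (0% to 7.86%) in controls. The gene body was at 8.58% ± 0.614 (8.06% to 9.56%) against 8.04% ± 1.59 (5.19% to 9.78%). Neither difference passed the test (limma adjusted p = 0.958 and 0.991).

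The 4 Bdnf islands split by position. The island before the start, printed above, was at 0.833% ± 1.61 (0% to 3.69%) against 4.28% ± 6.85 (0% to 16.7%). Without the highest control mouse the difference at that island shrank from -3.44 to -0.969 points. The second (chr2:109677173-109677637) was at 2.01% ± 3.87 against 1.28% ± 1.73, a difference that went from 0.726 to -0.992 points without the highest amphetamine-exposed mouse. The third (chr2:109693467-109694207), which holds an annotated start, was at 2.84% ± 2.37 against 1.53% ± 0.753. The fourth, in the coding exon, was at 97.7% ± 4.69 (90.6% to 100%, 4 mice with reads) against 96.9% ± 7.60 (81.4% to 100%). It carries 6.91 CpGs per 100 bases and the upstream island 8.49. The tile around the coding exon (chr2:109720001-109725000) had the lowest p of the 7 Bdnf tiles, at 85.0% ± 12.9 (75.0% to 100%) against 97.4% ± 4.12 (91.2% to 100%). These groups overlapped, at a coverage of 95.6 and 56.0 (limma adjusted p = 0.965, 0.0431 before adjustment). The coding-exon island inside this tile did not share its direction, at a difference of 0.757 points (interval -8.50 to 10.0).

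**Figure D4:**
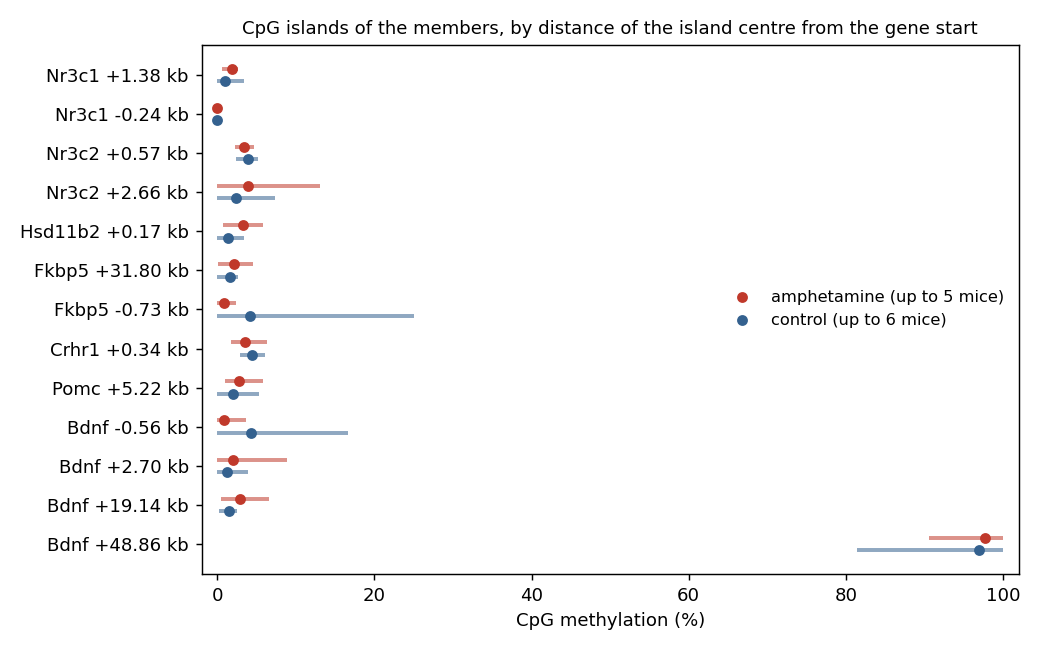
CpG methylation (%) of the 13 CpG islands, named by gene and distance of the island centre from the gene start, with points for group means and bars from the lowest to the highest mouse. 12 islands have means under 5% in both groups, and the Bdnf island in the coding exon stands at 97.7% and 96.9%. Single control mice reach 25% at the upstream Fkbp5 island and 16.7% at the upstream Bdnf island.

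With reads in all mice, the groups did not overlap at 0 of the 8 gene bodies (0.312% of all gene bodies) and 0 of the 11 islands (0.443% of all islands).

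Among the differences given above, leaving the highest mouse of either group out of its mean changed the direction at 2 of 7 promoters, 2 of 8 gene bodies and 5 of 13 islands.

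**Figure D5:**
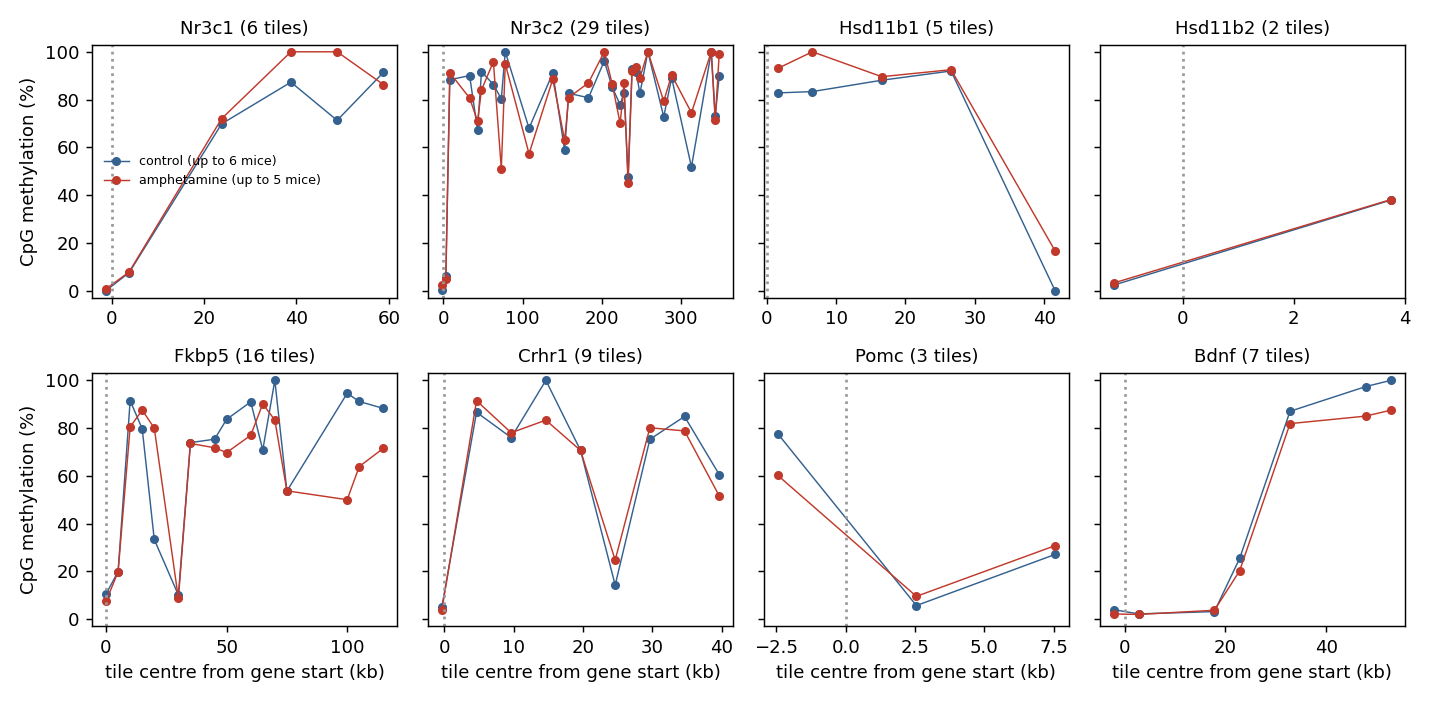
Mean CpG methylation (%) of the 77 tiles by distance of the tile centre from the gene start in kb, 1 panel for each gene, with a dotted line at the start. Tiles at the gene-table starts are low in both groups for all genes but Hsd11b1 and Pomc, and Crhr1 dips to 14.3% and 24.7% at 24.65 kb. The Hsd11b1 gene-table start lies upstream of the RefSeq promoter printed above, which has 0 CpGs within reach. Some tiles rest on few mice or a coverage under 10.

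Coverage moved with treatment. Summed over regions, it was 1.23 times as high after amphetamine as in controls at the members' promoters and 1.24 times over all promoters, and it was higher at all 8 gene bodies. Its part in the differences was not tested. As a check of the tissue, promoters of pancreatic markers were not uniformly unmethylated: control means ran from 15.5% to 85.0% at 3 acinar markers and from 1.71% to 90.0% at 4 endocrine markers, and 0 of 3 blood markers had a promoter in the table. Between controls and amphetamine-exposed mice the median went from 57.2% to 53.3% at the acinar markers, from 3.48% to 8.29% at the endocrine markers, from 60.7% to 77.7% at 2 endothelial markers and from 22.1% to 17.9% at 3 mesenchymal markers. Single acinar promoters moved further than their median, since the 3 ran from 51.7% to 75% after amphetamine. The one lowest in controls (15.5%) was therefore at 51.7% or higher, and the one highest in controls (85.0%) at 75% or lower. limma called 0 of the 12 marker promoters (0.0164% of all promoters). An endocrine marker was the 1 promoter of the 12 with an unadjusted p under 0.05 (4.11% of all promoters). The part of cell mixture in the members' values was not tested. These bulk values neither name a cell type nor measure its share.

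Females and males were compared over the same mice as treatment. limma called 0 of 7 promoters (0.564% of all promoters), 0 of 8 gene bodies (0.373%), 0 of 13 islands (1.09%) and 0 of 77 tiles (0.076%) between females and males. At an unadjusted p under 0.05 there were 0 promoters (6.07% of all), 0 gene bodies (6.5%), 0 islands (6.65%) and 5 tiles (5.59%), all 5 higher in females. The median difference, female minus male, was 0.281 points at the 77 tiles and 0.617 points over all tiles. At the Nr3c2 promoter females were at 1.15% ± 1.24 (0% to 2.75%) and males at 1.24% ± 1.27 (0% to 3.08%), a difference of -0.097 points (interval -1.93 to 1.74). The lowest p of the 28 promoter, gene-body and island values was that of the upstream Bdnf island, at 0.149% ± 0.365 (0% to 0.893%) in females and 5.79% ± 6.89 (0% to 16.7%) in males (limma adjusted p = 0.776, 0.0605 before adjustment). Without the highest male the difference there went from -5.64 to -2.92 points. The tile with the lowest p lay in a Crhr1 intron (chr11:104135001-104140000), at 96.8% ± 6.09 (84.4% to 100%) in females and 79.3% ± 16.0 (62.5% to 95.2%) in males (limma adjusted p = 0.857, 0.0267 before adjustment). An interaction of treatment and sex was not tested, since the tables hold 1 factor each.

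The wider pathway was followed in 54 further genes in 5 lists: stress-axis peptides and receptors, steroid synthesis and transport, receptor chaperones and coregulators, glucocorticoid-induced targets, and neurotrophins. For treatment, limma called 0 of 42 promoters (0.0164% of all promoters) and 0 of 50 gene bodies (0.0116% of all gene bodies) at an adjusted p under 0.05. At an unadjusted p under 0.05 there were 2 promoters, both lower (4.11% of all promoters passed in either direction), and 4 gene bodies, 3 higher and 1 lower (4.38% of all gene bodies). The median difference was -0.707 points over the 42 promoters and -0.839 over the 50 gene bodies, beside 0 and -0.086 over all. Promoter means were lower after amphetamine at 30 genes and higher at 12, while 49.5% of all promoters had a lower mean. Gene-body means were lower at 27 and higher at 23, while 51.1% of all gene bodies had a lower mean.

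The promoters with the lowest p were Errfi1, Pck1 and Zbtb16. Errfi1, a feedback inhibitor of the EGF receptor, was at 37.8% ± 12.5 (17.9% to 50%) after amphetamine and 69.5% ± 17.7 (47.8% to 92.5%) in controls, a difference of -31.7 points (limma adjusted p = 0.958, 0.006 before adjustment). Its groups overlapped between 47.8% and 50%. Pck1, a gluconeogenic enzyme, was at 51.2% ± 16.5 (37.8% to 79.5%) against 70.1% ± 10.4 (57.1% to 85.0%), and Zbtb16, a transcription factor, at 2.92% ± 1.34 against 5.30% ± 2.34.

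Among list gene bodies with reads in all mice, the groups did not overlap at 1 of 48, beside 0.312% of all gene bodies. Stub1, an Hsp90-associated ubiquitin ligase, was at 19.1% ± 1.97 (17.4% to 21.5%) after amphetamine and 13.6% ± 3.0 (9.83% to 17.2%) in controls, a difference of 5.46 points (interval 1.77 to 9.15, limma adjusted p = 0.984). G6pc, the glucose-6-phosphatase subunit, was at 78.4% ± 9.49 against 91.0% ± 5.99. Tat, tyrosine aminotransferase, was at 89.1% ± 10.8 against 63.5% ± 22.3. The groups overlapped at both genes.

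By sex, limma called 1 of the 50 gene bodies (0.373% of all gene bodies) and 0 of the 42 promoters (0.564% of all). At an unadjusted p under 0.05 there were 3 promoters (6.07% of all promoters passed). Of the gene bodies, 1 was higher and 4 were lower in females at that threshold (6.5% of all gene bodies passed). The gene body called was Tsc22d3, the X-linked glucocorticoid-induced leucine zipper, at 33.7% ± 3.76 (29.7% to 37.3%) in females and 10.1% ± 3.17 (7.31% to 14.9%) in males (limma adjusted p = 0.00122). Its promoter was at 30.0% ± 16.6 (13.0% to 55.7%) in females and 0.176% ± 0.334 (0% to 0.768%) in males, without overlap (adjusted p = 0.179). The Nfkbia promoter, of an inhibitor of NF-kappaB, also did not overlap, at 13.0% ± 3.39 (9.43% to 19.3%) in females and 6.35% ± 1.40 (5.01% to 8.71%) in males (limma adjusted p = 0.183). These were 2 of the 37 list promoters with reads in all mice. The share of all promoters without overlap between the sexes was not computed, so this count has no background to be set against.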

How the data were processed

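Reduced representation bisulfite sequencing was performed by the authors on 11 pancreata: DNA was cut with MspI and TaqI, reads were aligned to mm10 with Bismark, and CpGs were summarised per region. The submitters' processing notes name Bismark, limma and methylKit, with no version. Of the 8 deposited tables, 4 classes of region (promoters running 1500 bp upstream to 499 bp downstream of the start, gene bodies, CpG islands and 5000 bp tiles) were used in 2 comparisons. Methylation was deposited as a fraction, the mean of a group over its mice with reads, and is printed here as a percent. The deposited coverage signal is a mean over all mice of a group, those without reads counted as 0, and carries no depth normalisation; how it was combined over CpGs is not given in the sources used here. It ranged from 11.2 to 1047 at the members' promoters over both comparisons. Intervals are 95% confidence intervals of the difference in group means, with the spread between mice as the only source of error. The authors' columns of differences, log2 quotients, p-values, adjusted p-values and ranks were not used.

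From each group's mean, SD and number of mice with reads (at least 2 in each group), limma 3.58.1 in R 4.3.3 was applied as a two-sided moderated test, with Benjamini-Hochberg adjustment over all regions of a table and no covariate. The test was checked on simulated data for 21012 promoters. Where groups were compared without a model, the lowest value of one had to exceed the highest of the other in regions with reads in all mice. A CpG was taken as within reach if it lay within 50 bases of a cut site in GRCm38.p6, the assembly of mm10. 0 of the 259716 tiles ran past the end of a chromosome of that assembly. Annotation was GENCODE M21, and promoter sequences were RefSeq's. The members, the lists and the tests were chosen with earlier results of these data known. Named from the lists were any gene called or not overlapping and the 3 with the lowest p for treatment at promoters and at gene bodies; for members, every region, with tiles by lowest p and by non-overlap. Values per mouse were not used here, so tests without single mice and with sex as a covariate could not be done, but means without the highest mouse of a group were computed from its mean, number of mice and highest value. Alternatives were a variance trend, no moderation, a logit scale (offset 0.01), filters on reads in all mice, coverage of at least 10 and SD above 0, leaving out X and Y, the study's thresholds (fold above 1.5 and difference above 25 points), and an overlap of at least 50% of a region.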

Additional observations from a re-analysis of the deposited data

How the results depend on the processing

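The count of members called stayed at 0 in both comparisons and in the 4 classes of region under each of the 7 other fits, the thresholds of the study and, for islands and tiles, an overlap of at least 50%. The differences at single members kept their side of the threshold in all 1378 refits of 209 differences. Their direction could not change, since every refit used the same group means. The adjusted p of the Nr3c2 promoter ranged from 0.0742 (logit scale) to 0.998. Its tile left the count of groups that do not overlap, which became 0, when at least 50% of the tile had to lie inside. After the data were seen, differences were recomputed without the highest mouse of a group. This turned the direction for treatment at 2 of 7 promoters, 2 of 8 gene bodies and 5 of 13 islands. Among the islands was the upstream one of Fkbp5 (0.812 points without the highest control). Without the highest amphetamine-exposed mouse, the intronic Nr3c2 island (-0.669) and the second Bdnf island (-0.992) also turned. Means without the lowest mouse were not computed.

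Over all regions for treatment (promoters, gene bodies, islands, tiles; 4, 3, 2 and 48 called), the logit scale called 67, 25, 20 and 872. Reads in all mice called 0, 0, 0 and 1, an SD above 0 called 0, 0, 0 and 0, and coverage of at least 10 called 0, 0, 1 and 4. The variance trend called 5 gene bodies, 1 island and 30 tiles. The study's thresholds called 0 islands. Leaving out X and Y left 2 gene bodies. For sex (137, 96, 161 and 196), the logit scale called 378, 172, 302 and 1758, leaving out X and Y 3, 1, 1 and 72, and the study's thresholds 83, 50 and 91 in the first 3 classes. An SD above 0 left 46 tiles, coverage of at least 10 left 81 and reads in all mice 78. Tsc22d3 was not called under the study's thresholds (0 gene bodies of the lists). The count was also 0 without X and Y, but that setting leaves this X-linked gene untested. The logit scale called 1 list promoter by sex. The causes were not tested.

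No paired analysis was possible because the tables hold group summaries and the labels pair no mice. Tests that leave out each mouse, and a sex covariate, were not run for the same reason. Coverage was under 10 at some tiles.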

Other observations

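The values below were picked after they were seen and passed no threshold. The Nr3c1 tile across its start was at 0% in all 6 controls and at a mean of 0.657% (0% to 3%) after amphetamine (limma adjusted p = 0.979). Without the highest amphetamine-exposed mouse that mean was 0.0712%. The second Hsd11b2 tile, over its coding exons, was at 23.4% ± 24.4 (0% to 57.6%) in females and 55.5% ± 27.3 (13.7% to 81.4%) in males (limma adjusted p = 0.898), while the treatment groups stood at 38.1% and 37.9% there. The Fkbp5 tile next to its internal start was at 78.2% ± 7.68 (68.1% to 86.6%) in females and 68.4% ± 6.22 (63.7% to 79.0%) in males (limma adjusted p = 0.892), at a coverage of 655.7 and 555.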
